A study of Mus musculus with 10 samples.

Results

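Netrins and their receptors were followed in whole kidneys of mouse embryos at E13.5. The group holds the secreted ligands Ntn1, Ntn3 and Ntn4 and the receptors Dcc, Neo1, Unc5a, Unc5b, Unc5c and Unc5d, taken by gene symbol. Each of these 9 genes had 1 entry among the 35663 entries of the deposited expression table. The libraries formed 3 groups, all labelled with the strain C57/b6. The 4 kidneys labelled wild type have no named allele. The 3 control kidneys carried Foxd1-Cre, here called Foxd1GC, an allele in which a GFP-Cre fusion is made from the Foxd1 locus. The 3 Ntn1SPKO kidneys carried the same Foxd1-Cre allele together with a floxed Ntn1 gene on both chromosomes, so that controls and mutants share Foxd1GC and differ in Ntn1. The study counts each n as 1 embryo and drew on several litters per experiment, but the labels name neither the embryo nor the litter of a library, and p-values measure the spread between these libraries.

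Netrins are laminin-related proteins that are secreted and held in the extracellular matrix. Netrin 1 attracts growing axons through Dcc and Neo1 and repels them through the Unc5 receptors. For endothelial cells the paper names Unc5b as its receptor. Dcc and the Unc5 receptors also act as dependence receptors, which favour cell death when no netrin is bound. In the embryonic kidney the Foxd1+ stromal progenitors lie in the outer cortex beside the nephron progenitors, the ureteric bud tips and the growing vessels, and they are the cells in which Foxd1GC makes Cre. Descendants of these cells keep the deletion, so Ntn1 transcripts of cells outside the Foxd1 lineage are beyond its reach. The paper located Ntn1 transcripts in cortical stromal progenitors by in situ hybridization, and not in the medulla or nephrogenic zone. The paper also detected no Ntn1 protein in Ntn1SPKO kidneys. Which exons are floxed is not given in the sources used here, and transcripts that keep other coding exons can still be counted, so the level of Ntn1 checks the labels without measuring the lost protein.

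The starts of 6 of the 9 genes were found among the mouse promoter sequences of RefSeq (GRCm38.p6), each running from 250 bases before to 50 bases after the start of the gene. The promoters of 3 paralogs, Unc5c, Unc5b and Unc5a, are printed because these genes lie at 3 distinct levels in the same kidneys. They cover chr3:141465314-141465613 on the plus strand for Unc5c, chr10:60831532-60831831 on the minus strand for Unc5b and chr13:54949161-54949460 on the plus strand for Unc5a, and are written 5′ to 3′ on the strand of the gene. Capitals mark the GC box, GGGCGG or its reverse complement CCGCCC.
Unc5c: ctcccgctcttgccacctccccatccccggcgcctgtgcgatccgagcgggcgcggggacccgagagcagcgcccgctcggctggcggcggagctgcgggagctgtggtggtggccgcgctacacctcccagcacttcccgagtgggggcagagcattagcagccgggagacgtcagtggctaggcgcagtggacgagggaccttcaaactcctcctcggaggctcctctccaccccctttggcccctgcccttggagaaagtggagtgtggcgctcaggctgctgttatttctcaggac
Unc5b: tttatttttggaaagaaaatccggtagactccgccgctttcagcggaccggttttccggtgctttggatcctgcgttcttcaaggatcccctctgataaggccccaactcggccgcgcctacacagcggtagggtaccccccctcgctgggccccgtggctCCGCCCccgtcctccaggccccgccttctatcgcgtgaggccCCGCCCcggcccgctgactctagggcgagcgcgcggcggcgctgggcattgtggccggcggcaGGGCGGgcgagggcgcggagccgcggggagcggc
Unc5a: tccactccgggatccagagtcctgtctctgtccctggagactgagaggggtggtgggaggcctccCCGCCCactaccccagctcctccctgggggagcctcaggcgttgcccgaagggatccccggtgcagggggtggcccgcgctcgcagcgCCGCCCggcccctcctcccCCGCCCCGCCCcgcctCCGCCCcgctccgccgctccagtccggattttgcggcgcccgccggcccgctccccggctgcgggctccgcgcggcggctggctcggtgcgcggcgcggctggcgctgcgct
The Unc5c window held 24 CpG dinucleotides and no GC box, the Unc5b window 36 CpG and 3 GC boxes, and the Unc5a window 37 CpG and 5 GC boxes. The order of these counts was the reverse of the order of the transcript levels described next, in these 3 chosen genes only. It did not hold across the 6 promoters found. Neo1, the most abundant gene, had the most CpG, with 54 and 2 GC boxes. Ntn3 had 16 CpG and 2 GC boxes, and the weaker Ntn4 had 31 CpG and 4 GC boxes. Across the 6 promoters found, CpG counts ranged from 16 to 54, against a median of 7 over all 32851 promoters of the table. A GC box was present in 5 of the 6, against 35.7% of all promoters. The letters TATAAA, searched on both strands, were present in 0 of the 6 and in 13.6% of all promoters. These matches describe the letters of the windows and are no measure of factor binding.

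Levels are given in FPKM (fragments scaled to transcript length and library size), a scale per length on which genes can be set side by side. In wild-type kidneys Neo1 was the most abundant of the 9 genes, with 47.9 ± 5.12 FPKM (mean ± SD, n=4), followed by Unc5c with 38.9 ± 4.23 FPKM (n=4) and Ntn1 with 33.4 ± 8.81 FPKM (n=4). The ranges of these 3 genes overlapped, although Neo1 was above Unc5c in 10 of 10 libraries of the study. Unc5b (7.88 ± 1.11 FPKM, n=4) and Ntn3 (4.65 ± 0.212 FPKM, n=4) formed a middle tier, each separate from its neighbours in the order. Dcc (1.01 ± 0.226 FPKM, n=4), Unc5a (0.708 ± 0.0857 FPKM, n=4), Ntn4 (0.661 ± 0.170 FPKM, n=4) and Unc5d (0.486 ± 0.0365 FPKM, n=4) followed with overlapping ranges between neighbours. In wild-type kidneys, 89.4% of the entries above 0 in at least 1 library lay below Neo1, and 38.9% lay below Unc5d. Fragment numbers estimated from the low values were about 5700 to 7100 for Neo1 and 24 to 47 for Ntn4 per wild-type library, so that counting error alone was about 1.3% and 21% at the lowest of these.

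**Figure D1:**
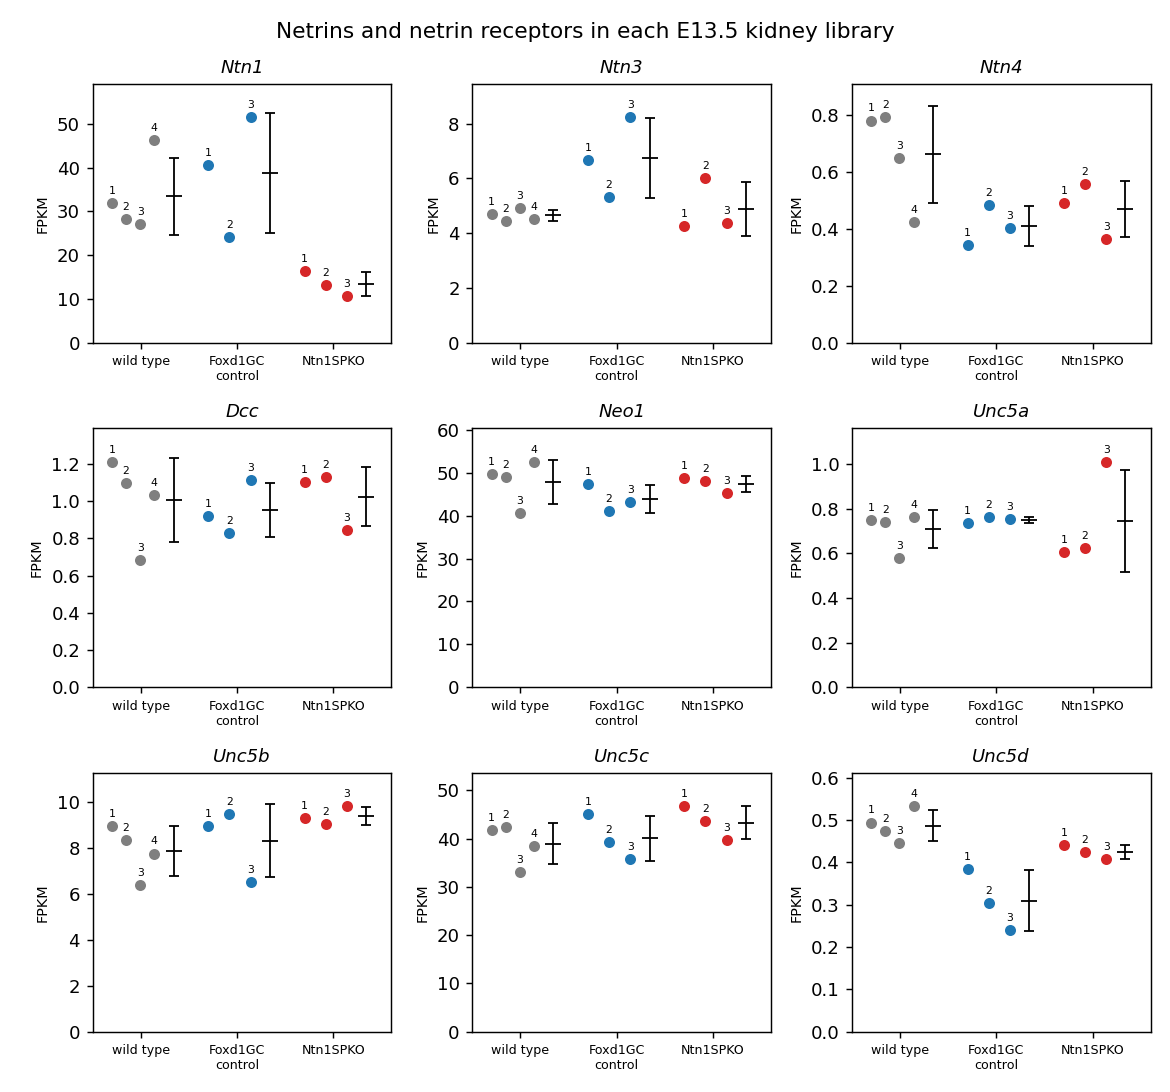
FPKM of the 9 genes (vertical axes, linear from 0) in each library, grouped as wild type (grey, 4 libraries), Foxd1GC control (blue, 3) and Ntn1SPKO (red, 3). Numbers are replicate numbers and bars are mean ± SD. Ntn1 lies between 10.7 and 16.3 FPKM in the Ntn1SPKO libraries, below every other library, whereas the levels of Dcc, Neo1 and Unc5c overlap between all groups.

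Ntn1, the deleted gene and the main netrin of these kidneys, lies on chromosome 11 of GRCm38 from 68209364 to 68400823 on the minus strand (ENSMUSG00000020902.12). The wild-type libraries held 31.9, 28.3, 27.1 and 46.3 FPKM in the order of their replicate numbers. The Foxd1GC control libraries held 40.7, 24.2 and 51.4 FPKM. The Ntn1SPKO libraries held 16.3, 13.1 and 10.7 FPKM, so that the highest mutant was below the lowest library of either other group. The ratio of the mutant mean to the control mean was 0.345. On the log2(FPKM+0.1) scale the difference between Ntn1SPKO and control was −1.48 with a standard error of 0.29 and a 95% interval from −2.19 to −0.77 (limma adjusted p=0.447, exact permutation p=0.1, two-sided, n=3 and 3). A call required at least a 2-fold difference together with a limma adjusted p below 0.1, and Ntn1 did not meet the second part. Under that rule, of the alternatives that kept it, Ntn1 was called without control replicate 2, the lowest control, when the difference was −1.79 (limma adjusted p=0.0619). Control replicate 2 was also the only control with transcripts of Y-linked genes, which all 3 mutants had. Without it, embryo sex and genotype cannot be told apart in this comparison. The smallest p that 3 libraries against 3 can give in the exact test is 0.1, and with 3 against 4 it is 0.0286. Against wild type the difference was −1.30 with a standard error of 0.21 (limma adjusted p=0.14, exact permutation p=0.0286). Both differences are taken to the same 3 mutant libraries. Between control and wild type, Ntn1 differed by 0.18 with a 95% interval from −0.47 to 0.83 (limma adjusted p=0.843).

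The control libraries differed from each other by more than the wild-type libraries did in Ntn1, and other markers moved with that spread. The order of the control libraries by Ntn1, with replicate 3 above replicate 1 above replicate 2, was also their order by the summed FPKM of 10 stroma markers, at 2150, 1952 and 1305, and of 10 skeletal muscle markers, at 372, 78.3 and 27.9. The skeletal muscle sum was 40.0 to 88.2 FPKM in wild-type and 9.35 to 28.8 FPKM in Ntn1SPKO kidneys, and the part of these markers in the Ntn1 difference was not tested. The ureteric bud markers had the opposite order, with 77.4 FPKM in control replicate 3, against 195 to 246 FPKM in the other control libraries and the mutants. Foxd1, whose locus carries the Cre, was at 21.3 to 30.7 FPKM in wild-type, 14.6 to 25.6 FPKM in control and 14.2 to 15.4 FPKM in Ntn1SPKO kidneys. Foxd1 is 1 of the 10 stroma markers, and the paper counts Foxd1GC as the loss of 1 Foxd1 allele. Y-linked transcripts, which mark male embryos, were present in 1 of 4 wild-type, 1 of 3 control and 3 of 3 Ntn1SPKO libraries. Relative to the mean log2 level of the 10 stroma markers, Ntn1 stood at −2.34, −2.62 and −3.00 in the mutants, at −1.33, −1.74 and −1.05 in the controls, and between −1.64 and −0.99 in wild type. The mutant libraries again did not overlap the others, with a difference of −1.28 against controls (exact permutation p=0.1) and −1.20 against wild type (exact permutation p=0.0286). Among libraries with Y-linked transcripts, the 3 mutants were below wild-type replicate 3 at 27.1 FPKM and control replicate 2 at 24.2 FPKM. Adding sex to the model moved the log2 difference of Ntn1 against controls to −0.87 with a standard error of 0.26 (limma adjusted p=1), a value that rests on control replicate 2 as the only control of that sex. In bulk kidney RNA, fewer cells of a type and less RNA per cell cannot be told apart.

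Ntn3 is a second secreted netrin whose exons overlap those of Tbc1d24 on the same strand and of the antisense gene BC028777. Like those of Unc5d, its control and wild-type libraries did not overlap. Wild-type libraries held 4.71, 4.44, 4.92 and 4.52 FPKM, a narrow range. Control libraries held 6.67, 5.32 and 8.22 FPKM, all above wild type. Ntn1SPKO libraries held 4.25, 6.00 and 4.38 FPKM and overlapped both groups. The difference between control and wild type was 0.51 on the log2 scale with a standard error of 0.15 and a 95% interval from 0.16 to 0.86 (limma adjusted p=0.665, exact permutation p=0.0286), and that between Ntn1SPKO and control was −0.45 with an interval from −0.95 to 0.04 (limma adjusted p=0.447, exact permutation p=0.2). Both differences include the same 3 control libraries. Against wild type the mutants differed by 0.05 with an interval from −0.25 to 0.36 (limma adjusted p=0.96). As for Ntn1, control replicate 3 was the highest library and also the highest in skeletal muscle markers, and without it the difference between control and wild type was 0.35 (limma adjusted p=1). Of 8 erythroid markers, 7 were measured, and their summed FPKM had the same order in the controls, at 12290, 12070 and 5493 in replicates 3, 1 and 2. The erythroid sum was 3334 to 8099 FPKM in wild-type and 3281 to 12620 FPKM in Ntn1SPKO kidneys, and 7 of the 7 genes had an unadjusted limma p under 0.05 between control and wild type (background 7.06%). In Ntn1SPKO replicates 1, 2 and 3 the erythroid sum was 3281, 4254 and 12620 FPKM. The part of skeletal muscle and erythroid markers in the Ntn3 difference was not tested. Tbc1d24 and BC028777 held 60 and 110 of the 31-base words of Ntn3, and 3.29% of its words were shared with other genes in all. These words were counted on both strands and over whole transcripts, whereas the authors' index held coding sequences. How far reads from these overlapping genes entered the Ntn3 value was not tested.

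Ntn4, a netrin of basement membranes, was near the lower limit of measurement. Wild-type libraries held 0.780, 0.791, 0.650 and 0.424 FPKM, control libraries 0.343, 0.483 and 0.402 FPKM, and Ntn1SPKO libraries 0.489, 0.556 and 0.365 FPKM. Wild-type replicates 1 to 3 were above every other library, and wild-type replicate 4 lay within the range of the other groups. The control kidneys differed from wild type by −0.56 with an interval from −1.32 to 0.21 (limma adjusted p=0.669, exact permutation p=0.0857), and the mutants by −0.40 with an interval from −1.11 to 0.31 (limma adjusted p=0.947, exact permutation p=0.143). Between Ntn1SPKO and control, Ntn4 did not reach the mean of 0.5 FPKM required for the fit, and the exact permutation p was 0.4.

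Added up, the 3 netrins came to 38.7 ± 8.58 FPKM (n=4) in wild type, to 45.9 ± 15.1 FPKM (n=3) in controls and to 18.7 ± 2.92 FPKM (n=3) in mutants. Ntn1 made up 83.0% to 90.3% of the sum in wild-type, 80.7% to 85.6% in control and 66.7% to 77.4% in Ntn1SPKO libraries, so that it was the largest part in every library. The share of Ntn3 was 8.82% to 15.0%, 13.7% to 17.7% and 20.2% to 30.5% in the same groups. The ratio of Ntn1 to Ntn3 within a library, which does not depend on the scaling between libraries, was 7.23 ± 2.07 (n=4) in wild-type and 5.63 ± 0.942 (n=3) in control kidneys, against 2.82 ± 0.883 (n=3) in Ntn1SPKO kidneys. Every mutant library was below every other library in this ratio (exact permutation p=0.1 against control and 0.0286 against wild type).

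**Figure D2:**
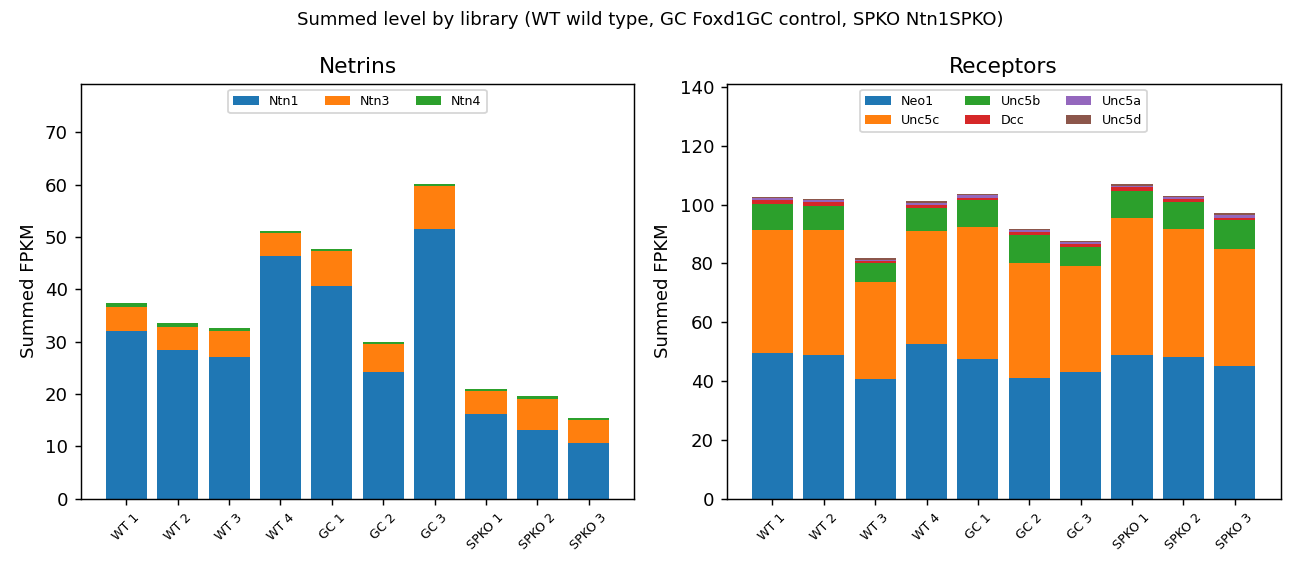
Summed FPKM (vertical axes) of the 3 netrins and of the 6 receptors in each library (horizontal axes), with 1 colour per gene. The netrin sum is 15.4 to 21.0 FPKM in the Ntn1SPKO libraries and 30.0 to 60.1 FPKM in the others, whereas the receptor sums of the 3 groups overlap.

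Neo1, a Dcc-related receptor for netrins and repulsive guidance molecules, was the most abundant receptor. Its level was 49.6, 49.0, 40.6 and 52.5 FPKM in wild-type, 47.4, 41.0 and 43.2 FPKM in control and 48.8, 48.1 and 45.2 FPKM in Ntn1SPKO libraries. The groups overlapped, and the log2 difference between Ntn1SPKO and control was 0.11 with a 95% interval from −0.07 to 0.29 (limma adjusted p=0.503). This interval excludes a 2-fold change in either direction, as does that against wild type, which ran from −0.23 to 0.21.

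Dcc, the founding netrin receptor of commissural axons, was expressed far below Neo1. Wild-type libraries held 1.21, 1.10, 0.686 and 1.03 FPKM, control libraries 0.922, 0.826 and 1.11 FPKM, and Ntn1SPKO libraries 1.10, 1.13 and 0.843 FPKM. All 3 groups overlapped. The difference between Ntn1SPKO and control was 0.09 with an interval from −0.50 to 0.68 (limma adjusted p=0.867), which is wider than that of Neo1. Neural and neural crest markers, summed over 10 genes, were at 15.5 to 26.3 FPKM in wild-type, 17.6 to 20.9 FPKM in control and 14.2 to 18.4 FPKM in Ntn1SPKO libraries, and their part in the Dcc level was not tested.

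Unc5c, a repulsive netrin receptor and the most abundant Unc5 gene here, was at 41.7, 42.3, 33.1 and 38.5 FPKM in wild-type, 45.1, 39.3 and 35.8 FPKM in control and 46.6, 43.6 and 39.7 FPKM in Ntn1SPKO libraries. Within each group the libraries spanned more than the distance between the group means. The difference between Ntn1SPKO and control was 0.12 with an interval from −0.14 to 0.37 (limma adjusted p=0.604), and that against wild type was 0.16 with an interval from −0.08 to 0.40 (limma adjusted p=0.947). The level of Unc5c was also set beside 10 nephron progenitor markers. Relative to their mean log2 level, Unc5c differed by 0.21 between Ntn1SPKO and control (exact permutation p=0.6) and by −0.02 without control replicate 3, which stood at 0.19 against 0.80 and 0.94 in the other controls.

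Unc5b, the Unc5 receptor known from endothelium, lay between the levels of Unc5c and Unc5a. Its level was 8.98, 8.37, 6.39 and 7.77 FPKM in wild-type, 8.96, 9.51 and 6.51 FPKM in control and 9.34, 9.06 and 9.82 FPKM in Ntn1SPKO libraries. All 3 mutants were above all 4 wild-type libraries, while 1 control library was among the mutants. The difference was 0.26 against wild type with an interval from −0.01 to 0.54 (limma adjusted p=0.882, exact permutation p=0.0571) and 0.19 against control with an interval from −0.18 to 0.56 (limma adjusted p=0.568). Without control replicate 3 the difference to control was 0.03, and with sex in the model it was −0.02. Endothelial markers, summed over 10 genes, were at 177 to 219 FPKM in wild-type, 226 to 252 FPKM in control and 211 to 241 FPKM in Ntn1SPKO libraries. Relative to their mean log2 level, Unc5b differed by 0.05 between Ntn1SPKO and wild type (exact permutation p=0.714) and by 0.20 between Ntn1SPKO and control (exact permutation p=0.4), with overlapping groups in both.

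**Figure D3:**
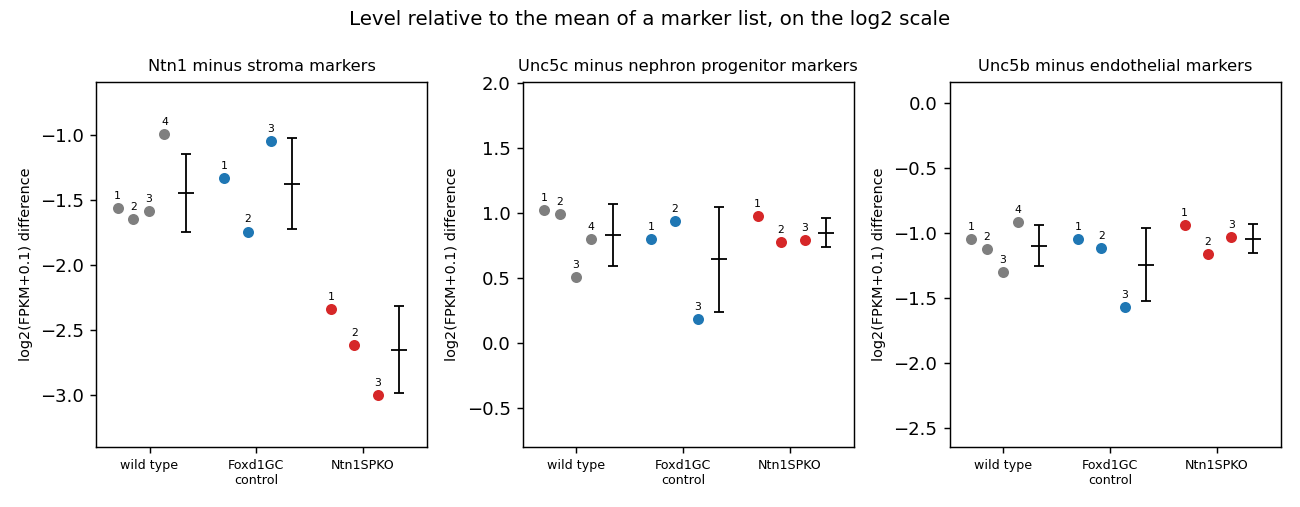
Log2(FPKM+0.1) of Ntn1, Unc5c and Unc5b minus the mean of a list of 10 markers (vertical axes, each spanning the same range of log2 units) in each library, with replicate numbers and mean ± SD. The Ntn1SPKO libraries are below all others for Ntn1, at −2.34 to −3.00, and overlap the other groups for Unc5c and Unc5b.

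Unc5a and Unc5d, whose best known sites are neurons, were the weakest Unc5 genes. Unc5a was at 0.749, 0.742, 0.580 and 0.761 FPKM in wild-type, 0.735, 0.761 and 0.752 FPKM in control and 0.606, 0.622 and 1.01 FPKM in Ntn1SPKO libraries. The highest and the second lowest of all 10 values were both mutants, and the difference to control was −0.04 with an interval from −0.75 to 0.68 (limma adjusted p=0.959). Unc5d was at 0.494, 0.473, 0.446 and 0.532 FPKM in wild-type, 0.386, 0.303 and 0.241 FPKM in control and 0.441, 0.424 and 0.408 FPKM in Ntn1SPKO libraries. The 3 groups of Unc5d did not overlap, with wild type highest and control lowest. Unc5d was below the mean level required for each fit, and its exact permutation p was 0.1 for Ntn1SPKO against control, 0.0571 for Ntn1SPKO against wild type and 0.0286 for control against wild type. These values stand on about 19 to 33 fragments per control library and 40 to 46 per wild-type library, with counting error of about 23% and 16% at the lowest.

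The 6 receptors together came to 96.9 ± 10.1 FPKM (n=4) in wild type, to 94.3 ± 8.26 FPKM (n=3) in controls and to 102 ± 4.96 FPKM (n=3) in mutants. Neo1 made up 44.7% to 51.9% of the sum, Unc5c 38.1% to 43.6% and Unc5b 7.43% to 10.4% over all libraries, and Dcc, Unc5a and Unc5d together 1.97% to 2.40%. Wild-type replicate 3, the library with the largest summed FPKM, was the lowest wild-type library for 7 of the 9 genes, as it was for 34.9% of all entries tested, and its receptor sum was 81.8 FPKM against 101 to 103 FPKM in the other wild-type libraries.

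Counted over the group, 7 of the 9 genes could be fitted between Ntn1SPKO and control and 0 were called, against 0.055% of the 14550 entries tested. Of the 7, 1 (Ntn1) had an unadjusted limma p under 0.05, against a background of 10.7%. Mutant and control libraries were separate for 2 of the 9 genes, Ntn1 with the mutants lower and Unc5d with the mutants higher, against 19.9% of all entries tested. Between Ntn1SPKO and wild type 8 were fitted and 0 called (background 0.0485%), 1 (Ntn1) had an unadjusted p under 0.05 (background 5.76%), and 3 did not overlap, Ntn1, Unc5b and Unc5d (background 7.1%). Between control and wild type 8 were fitted and 0 called (background 0.00685%), 1 (Ntn3) had an unadjusted p under 0.05 (background 7.06%), and 2 did not overlap, Ntn3 and Unc5d (background 8.09%). The backgrounds cover only entries that could be fitted, which Unc5d could not be in any comparison. Among fitted members, Ntn1 alone was separate between Ntn1SPKO and control. Ntn1 and Unc5b were separate between Ntn1SPKO and wild type, and Ntn3 between control and wild type. The median log2 difference of the fitted members was 0.09, 0.04 and 0.06 in the 3 comparisons, where that of all entries was 0.01, 0.00 and −0.01. These comparisons share libraries and do not count as independent of each other.

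**Figure D4:**
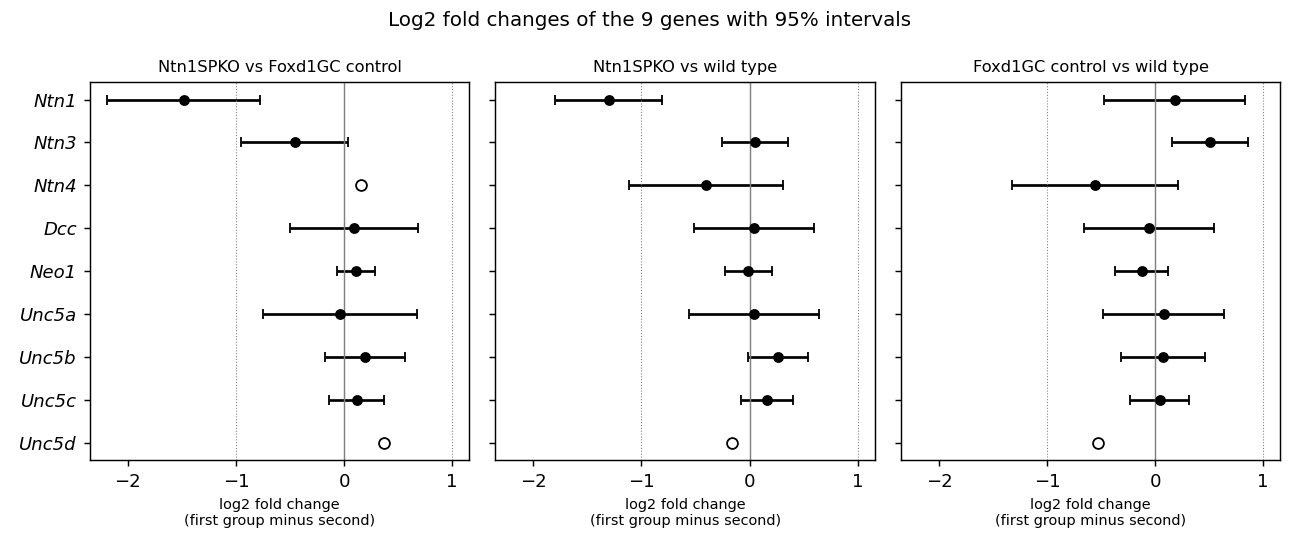
Log2 differences of the 9 genes in the 3 comparisons (horizontal axes, first group minus second, on the log2(FPKM+0.1) scale), with the 95% intervals of limma. Open circles are genes under the mean level required for the fit, without interval, and dotted lines mark a 2-fold change. The interval of Ntn1 lies below 0 in both comparisons of Ntn1SPKO, and that of Ntn3 above 0 between control and wild type.

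The wider netrin pathway was read from 3 lists. Of 12 other ligands of this family and its receptors, such as the repulsive guidance molecules Rgma and Rgmb and the Unc5 ligand Flrt2, 10 were tested between Ntn1SPKO and control, with 0 called and 0 at an unadjusted limma p under 0.05. Flrt2 was at 37.3 FPKM in Ntn1SPKO and 37.6 FPKM in control kidneys, a level near that of Unc5c, and the glypican Gpc3, an Unc5 binding protein, at 442 and 458 FPKM. Of 9 other netrin-binding surface proteins, 8 were tested, with 0 called and 1 lower at an unadjusted limma p under 0.05. Over the 3 lists 3 of 44 genes tested (6.82%) had such a p, against 10.7% of all entries, so that the genes named here are no more frequent than in the background. The 1 gene was Lrrc4c, a netrin G ligand, with a mean of 0.476 ± 0.163 FPKM (n=3) in mutants and 1.01 ± 0.0745 FPKM (n=3) in controls, a difference of −0.99 (limma adjusted p=0.447). Wild-type kidneys had 0.574 ± 0.115 FPKM (n=4), and each wild-type library lay below each control library.

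Of 27 cytoplasmic partners of the receptors, 26 were tested between Ntn1SPKO and control, with 0 called and 2 higher at an unadjusted limma p under 0.05. These were Enah, an actin regulator, with a difference of 0.23, and Rac1, a small GTPase of netrin signalling, with 0.13 (limma adjusted p=0.447 for each). Rac1 was at 292 to 295 FPKM in the mutants, 260 to 279 FPKM in the controls and 282 to 320 FPKM in wild type, so that the mutants lay within the wild-type range. The other genes whose mutant and control libraries did not overlap were Wasl (0.20), Itga3 (0.43), Trim9 (−0.73), Ntng1 (−0.30) and Draxin (0.25), with limma adjusted p from 0.447 to 0.614. In all, 8 of the 44 genes (18.2%) did not overlap, near the background of 19.9%. The medians of the 3 lists were −0.12, 0.01 and 0.01 on the log2 scale. In the comparisons with wild type, 0 genes of the 3 lists were called (backgrounds 0.0485% for Ntn1SPKO and 0.00685% for control). For Ntn1SPKO, 4 of 43 genes (9.3%) had an unadjusted limma p under 0.05, against 5.76% of all entries. Groups did not overlap for 5 of them (11.6%), against 7.1%. For control, these were 2 of 45 genes (4.44%) and 3 (6.67%), against 7.06% and 8.09%.

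Genes near Ntn1, which are linked to the floxed allele, were compared as well. Of 68 genes annotated within 1 Mb of either end of Ntn1, 29 were tested between Ntn1SPKO and control and 0 were called. Unadjusted limma p was under 0.05 for 4 of them (13.8%), and groups did not overlap for 6 (20.7%), shares near the backgrounds of 10.7% and 19.9%. The gene with the lowest p was Rpl26, a ribosomal protein gene 501 kb from Ntn1, on chromosome 11 from 68901583 to 68906989. Rpl26 was at 1847, 1918 and 1816 FPKM in the mutants and at 1170, 1236 and 1210 FPKM in the controls, a log2 difference of 0.63 with a standard error of 0.05 (limma adjusted p=0.0315), under the 2-fold limit. Wild-type libraries held both levels, with 1143 and 1181 FPKM in replicates 1 and 2 and 1824 and 1858 FPKM in replicates 3 and 4. Rpl26 has processed pseudogenes in the same table, between which reads can be split, so its level is uncertain. The part of such reads in the Rpl26 difference was not tested. The next were Gas7 (−0.58), Pfas (0.28) and Kdm6b (0.20), each with a limma adjusted p of 0.447.

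**Figure D5:**
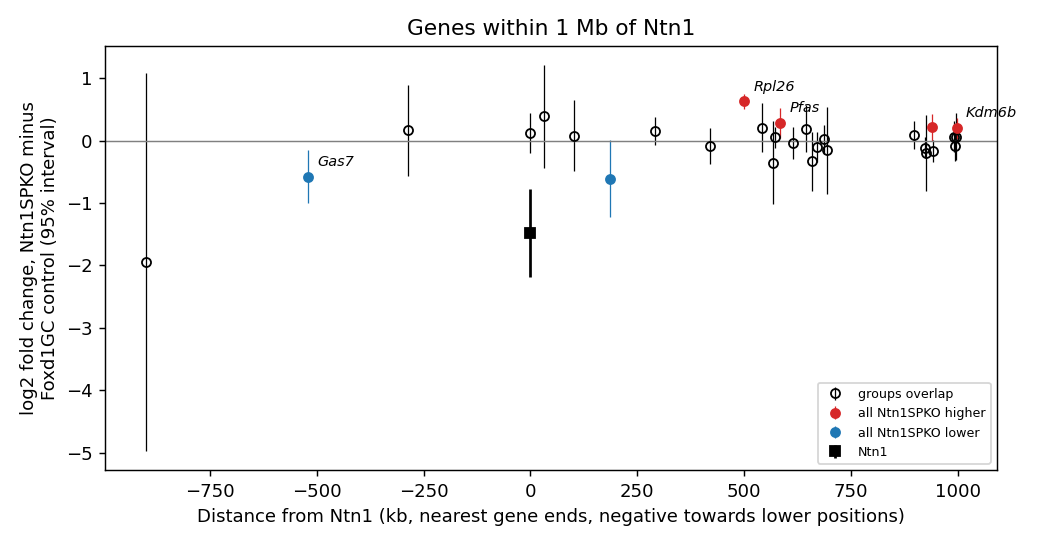
Log2 difference between Ntn1SPKO and control with its 95% interval (vertical axis) for the 29 tested genes within 1 Mb of Ntn1, by distance in kb (horizontal axis). Filled colours mark genes whose groups do not overlap, 4 higher and 2 lower in the mutants, and Ntn1 itself is the black square at −1.48. Rpl26 stands at 0.63 with the narrow interval from 0.50 to 0.75.

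Genes with the most similar pattern over the 10 libraries were listed by Pearson's r of log2(FPKM+0.1), as a description over points that share groups and tissue makeup. The 5 nearest to Ntn1 were Kcnd2 (r=0.955), Kcnma1 (0.953), Tmtc4 (0.953), Hpse (0.948) and Smoc2 (0.947). Smoc2, a secreted matrix protein, had a mean of 42.9 ± 9.49 FPKM (n=4) in wild type and 42.7 ± 18.4 FPKM (n=3) in controls, against 18.1 ± 4.12 FPKM (n=3) in mutants. Nearest to Ntn4 were Zfp429 (0.916), Ttc33 (0.907), Arl2bp (0.892), Bcat1 (0.892) and Extl2 (0.878). Among receptors, the nearest to Neo1 were Tle4 (0.952), Slc5a3, Wdr19, Fam168a and Mia3 (0.938 for the last), to Unc5b Ankhd1 (0.960), Med25, Fosl2, Gprc5b and Agbl5 (0.947 for the last), and to Unc5c Kdm5a (0.961), Gm12458, Zfp609, Stox2 and Pcdh17 (0.932 for the last). Only genes averaging 1 FPKM or more could enter these lists, so Dcc, Ntn4, Unc5a and Unc5d could not appear in them. For these members, their absence from the lists says nothing about shared patterns. Of the other members, Ntn1, Ntn3, Neo1, Unc5b and Unc5c, none was among the 5 genes listed for another member.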

How the data were processed

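RNA-seq of whole E13.5 kidneys covered 4 wild-type, 3 Foxd1GC control and 3 Ntn1SPKO libraries, grouped by the deposited labels. Per the paper, the authors ran Salmon (version not given in the sources used here) on coding sequences of Ensembl GRCm38, imported genes with tximport and used DESeq2, and the submitters' processing notes name bcl2fastq 2.17.1.14. The deposited values are FPKM by gene symbol, with no counts, and were used as they are: they already carry a scaling between libraries. Members and lists were chosen with earlier results of these data known. Depth is not stated. The lowest cluster of FPKM times coding length, over genes with 1 annotated transcript and at least 1500 coding bases, gave a scale of about 28 to 32 M fragments per library (1 M is 1e6), in a window of values chosen after seeing them, so depths and fragment numbers are rough. Counting error covers sampling of fragments only.

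Entries whose mean in the libraries of a fit reached 0.5 FPKM were tested on log2(FPKM+0.1), a scale that understates changes of low genes, with limma 3.58.1 (R 4.3.3), eBayes with a trend by mean level and p-values adjusted after Benjamini and Hochberg over all entries tested. Each fit held only the groups compared, with no covariate. Calls needed an adjusted p under 0.1 and at least a 2-fold change. Single values were also tested with two-sided exact permutation tests over libraries. The limma steps were tested on simulated data. Replicate numbers did not pair libraries. Named genes were all members, up to 4 genes per pathway list and up to 4 neighbours of Ntn1 by unadjusted p among those without overlap between Ntn1SPKO and control, and 5 genes by Pearson's r for each of Ntn1, Ntn4, Neo1, Unc5b and Unc5c. Coordinates and overlaps are from GENCODE M21 (GRCm38). Alternatives were other pseudocounts, filters, scalings and thresholds, no trend, robust eBayes, 1 fit of all 10 libraries, the replicate block, embryo sex as a covariate, and leaving out each library.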

Additional observations from a re-analysis of the deposited data

Results flagged for a closer look

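Unc5a stood out within the wild-type kidneys. Its level in wild-type replicate 3 was 0.580 FPKM, against 0.742 to 0.761 FPKM in the other 3 wild-type libraries. The gap to the nearest library was 0.890 of the whole range, above Dixon's limit of 0.829 for 4 libraries. The same test was run for each of the 9 genes in wild type, and chance alone marks about 1 in 20 such groups. That library had the largest summed FPKM of the study and was the lowest wild-type library for 7 of the 9 genes. It was also the only wild-type library with Y-linked transcripts and had the highest wild-type erythroid sum, at 8099 FPKM. The part of these features in the Unc5a value was not tested.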

How the results depend on the processing

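Of 407 recomputed log2 differences of single members, 381 kept their direction and their side of the threshold, 1 passed the threshold (Ntn1 without control replicate 2) and 25 changed sign, all of these small differences that were not called. With other filters, no trend, robust eBayes or all 10 libraries in one fit, the p-value could change but the difference could not. Scaling by the median of ratios had the same factor, 1.0018, in every library. Directions kept in these settings were therefore fixed in advance. No member was called in any comparison except Ntn1. The count of called members was 1 in place of 0 when calls needed a 2-fold difference and an unadjusted limma p below 0.1, both for Ntn1SPKO against control and against wild type. Leaving out each library gave 0 to 1 called members for Ntn1SPKO against control, with the 1 without control replicate 2. That library was the only control with Y-linked transcripts, which all mutants had. Over the libraries left out, the log2 difference of Ntn1 ranged from −1.79 to −1.25. Sex as a covariate moved that difference to −0.87 and that of Unc5b to −0.0166. The cause of these changes was not tested.

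Other sign changes were as follows. Quantile normalization gave 0.12 for Unc5a in Ntn1SPKO against control and −0.0049 in control against wild type, and an equal FPKM total gave 0.0455 for Neo1 in Ntn1SPKO against wild type. Leaving out each library gave −0.25 to 0.08 for Unc5a and −0.0213 to 0.35 for Unc5c relative to nephron progenitor markers in Ntn1SPKO against control, the latter negative without control replicate 3. In Ntn1SPKO against wild type it gave −0.17 to 0.15 for Unc5a, −0.0879 to 0.0356 for Neo1, −0.12 to 0.16 for Dcc and −0.10 to 0.14 for Ntn3. In control against wild type it gave −0.0329 to 0.24 for Unc5b, −0.0573 to 0.49 for Ntn1, −0.0025 to 0.11 for Unc5a, −0.0458 to 0.12 for Unc5c and −0.21 to 0.0353 for Dcc.

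The count of all entries called, 8 for Ntn1SPKO against control, became 334 with the unadjusted rule, 21 with no filter, 0 with all 10 libraries in one fit and 4 with sex as a covariate, and 3 to 78 when each library was left out. Control replicate 2 gave the 78, and the count was also over 1.5 times lower or higher without each of control replicates 1 (16) and 3 (20) and mutant replicates 1 (21) and 2 (3). For Ntn1SPKO against wild type the count of 7 became 201, 18 and 0 under the first 3 of these settings, 2 with a pseudocount of 1, 12 without the intensity trend and 1 to 20 when each library was left out. For control against wild type the count of 1 became 207, 9 and 0, 2 with a pseudocount of 1, 2 with one of 0.01, 4 without the trend and 3 to 20. In the fit of all 10 libraries, 2 members (Ntn1 and Ntn3) had an unadjusted limma p under 0.05 for Ntn1SPKO against control.

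The replicate number as a block gave 4 called entries for Ntn1SPKO against control and called no member. The block left the Ntn1 difference at −1.48 and moved Neo1 against wild type to 0.0356. Deviations of libraries with the same number correlated by −0.0471 to 0.0755, so the numbers do not pair libraries. Depths are rough, and 3 or 4 libraries a group limit the precision of each comparison.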
